A study of Mus musculus with 9 samples.

Results

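Cux1, Cux2, Tbr1, Bcl11b, Fezf2, Rorb, Tle4, Foxp1 and Foxp2 are transcription regulators that are commonly used to tell the layers of the neocortex apart. Their RNA was followed here through 3 layers of the mouse piriform cortex, the largest area of the olfactory cortex. The 9 genes were taken by name from 33940 annotated genes in the count tables, and each was read from its transcript with the highest mean count over the 9 samples. Tissue came from untreated wild-type C57BL/6 mice whose age the labels give as 8 weeks, and which the methods describe as adult males and as somewhat older. Each layer was cut out of frozen sections with a laser (laser-capture micro-dissection) and sampled in 3 replicates. The labels call the layers A, B and C and give no key to the anatomical layers I, II and III, so the letters are used as they stand. No source states whether replicates are separate animals, so the p-values measure only the spread between these samples, which may be technical.

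In the neocortex, projection neurons of different layers are born in sequence and are held to their identity by transcription factors that partly repress each other. Cux1 and Cux2 mark upper-layer neurons that connect cortical areas, Rorb marks the input layer, Fezf2 and Bcl11b act in neurons that project to the brainstem and spinal cord, and Tbr1, Tle4, Foxp1 and Foxp2 are used as markers of deep-layer neurons, Tbr1 and Foxp2 above all of those projecting to the thalamus. The piriform cortex is a simpler cortex of 3 layers. Its outer layer holds few cell bodies and many incoming fibres, its middle layer is densely packed with principal neurons, and its deep layer holds scattered neurons.

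Levels are given as normalized CPM, the share of a transcript in its library total after scaling by the trimmed mean of M-values (TMM), and differences as log2 fold changes from edgeR with their standard errors (SE). Comparisons are named by their layers, such as A against B, with the former over the latter. A transcript passed when its adjusted p-value from edgeR's quasi-likelihood test was under 0.05, and all 9 genes met the minimum of 10 counts in at least 3 samples. In A against B, 2 of the 9 genes passed. Rorb was higher in layer A, where 10.7% of the 56416 tested transcripts were called higher, and Tbr1 was lower, where 5.83% were called lower. Rorb alone passed in A against C, a comparison in which 6.98% of transcripts were called higher in layer A and 4.35% lower. No gene of the 9 passed in B against C with edgeR, nor did any of the tested transcripts, so that the share called was 0%. At an unadjusted p-value under 0.05, 4 of the 9 genes and 29% of transcripts stood out in A against B, 1 and 24.5% in A against C, and 3 and 4.11% in B against C. In the last of these DESeq2 called 0.22% of transcripts and none of the 9 genes. The count of 2 of 9 in A against B stands beside 16.5% of all transcripts called in either direction, and the count of 1 of 9 in A against C beside 11.3%.

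**Figure D1:**
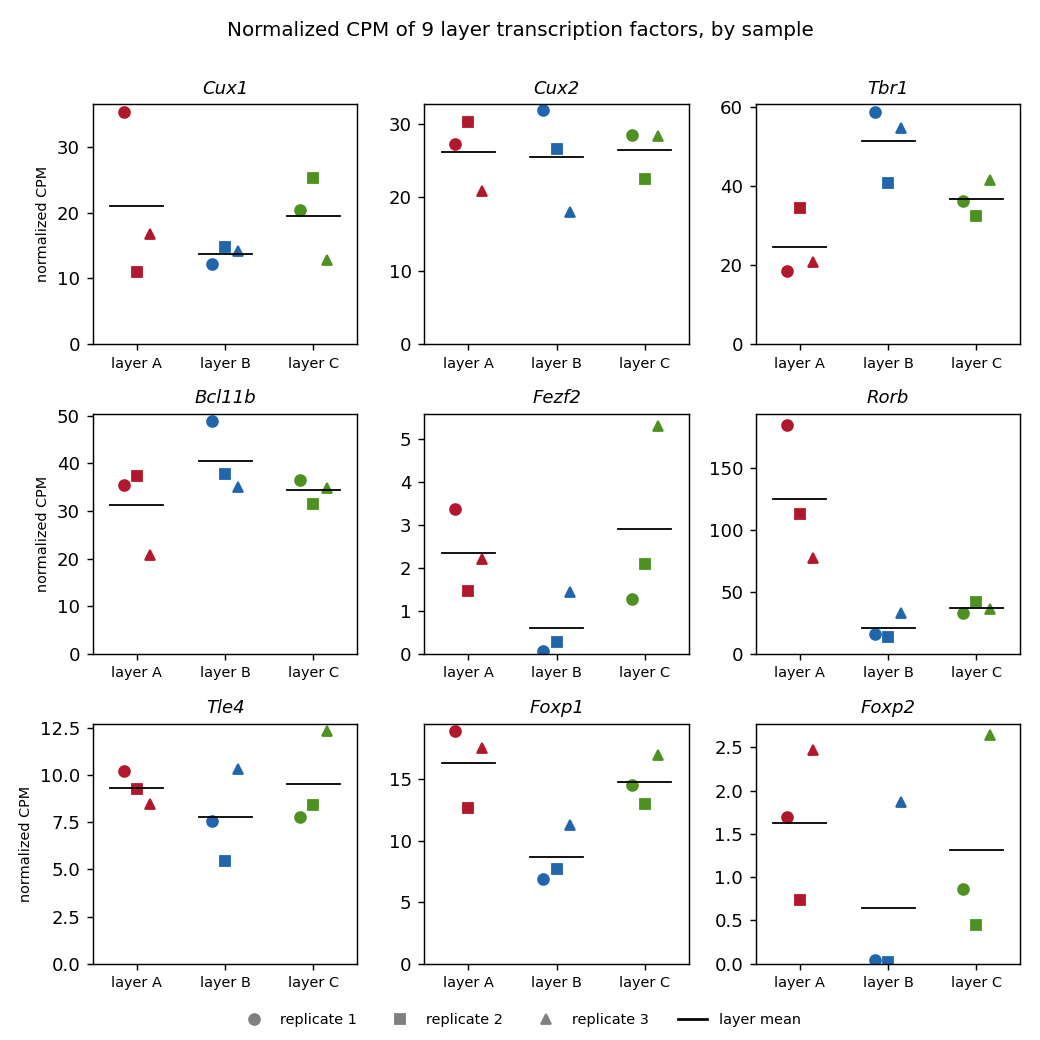
Normalized CPM of the 9 transcription factors in each of the 9 samples, with 1 panel per gene on a linear axis. Samples are grouped by layer, with 1 point per sample and a bar at the layer mean. Rorb lies between 77.6 and 184 CPM in layer A and between 13.6 and 41.7 CPM in layers B and C, Tbr1 is lowest in layer A, and Fezf2 and Foxp2 are near the bottom of the scale in replicates 1 and 2 of layer B but not in replicate 3.

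Several features of the libraries bear on these values. Total counts ranged from 23104306 to 76471683 per sample, and 3 counts, taken as the floor of detection, correspond to 0.0255 to 0.254 normalized CPM, a limit that covers counting error only. The layer A libraries held 56.4 to 72.6% mitochondrial counts, against 13.1 to 30.1% in layer B and 21.2 to 59.0% in layer C. All 7 astrocyte markers passed as higher in A against B and in A against C, with summed levels of 1216 to 1816 CPM in layer A, 107 to 293 CPM in layer B and 202 to 315 CPM in layer C, and all 6 meningeal markers were higher in layer A as well. All 6 general neuronal markers passed as lower in A against B, with sums of 770 to 1288 CPM against 2155 to 5553 CPM. In layer B, replicates 1 and 2 differed from each other by a root mean square of 0.581 on the log2 scale over transcripts, and replicate 3 differed from them by 1.38 and 1.43. Pairs within layer A differed by 1.12 to 1.44 and within layer C by 0.789 to 1.38, so that replicate 3 was no farther from its layer than samples of the other layers were, and replicates 1 and 2 were the closest pair. In several marker sums replicate 3 of layer B was the highest of its layer, at 284 CPM of GABAergic markers against 58.9 and 54.4 CPM. It was at 210 CPM of oligodendrocyte markers against 42.0 and 45.4 CPM, and at 5553 CPM of general neuronal markers against 2737 and 2155 CPM. Of this last sum 4296 CPM came from Snap25, whereas Rbfox3 of the same list was lowest in replicate 3, at 50.1 CPM against 57.5 and 64.8 CPM. Nor was replicate 3 the highest in the sum of glutamatergic markers, at 1129 CPM against 1128 and 1212 CPM. Most of that sum was Camk2a, at 739, 881 and 813 CPM in replicates 1, 2 and 3. Slc17a6 was at 33.2 CPM in replicate 3 against 6.91 and 4.91 CPM, and Nrgn, Neurod2 and Neurod6 were also highest there. Slc17a7 was lowest there, at 165 CPM against 313 and 267 CPM. In the sum of striatal or olfactory tubercle markers replicate 3 was not the highest either, at 75.9 CPM against 80.3 and 61.4 CPM. In such bulk tissue, fewer cells of a type and less RNA per cell cannot be told apart.

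Rorb, a nuclear receptor of the retinoid-related orphan family that marks layer 4 neurons of sensory neocortex, was the 1 gene of the 9 that passed against both other layers. It was at 184, 112 and 77.6 CPM in the 3 replicates of layer A. In layer B it was at 15.7, 13.6 and 32.7 CPM, and in layer C at 33.1, 41.7 and 36.4 CPM. Every layer A sample lay above every sample of the other layers, and the lowest layer A sample was still well above the highest of layers B and C. The mean was 125 ± 54.5 CPM in layer A, 20.7 ± 10.5 CPM in layer B and 37.1 ± 4.32 CPM in layer C (SD, n = 3 each). Against layer B it was 6.03-fold higher in layer A (log2 fold change 2.59, SE 0.398, adjusted p = 0.000669), and it passed in every alternative tried, with adjusted p-values from 8.55e-08 to 0.00492. Against layer C it was 3.37-fold higher in layer A (log2 fold change 1.75, SE 0.386, adjusted p = 0.0106). That second call was lost without layer A replicate 1 (log2 fold change 1.36, adjusted p = 0.0574) and without layer C replicate 1 (1.68, adjusted p = 0.0756), and the adjusted p-value ranged from 0.000866 to 0.0756 over the alternatives. Astrocyte, microglial, endothelial and meningeal markers were higher in the same layer A samples. Microglial markers summed to 80.4 to 99.1 CPM in layer A, 12.3 to 26.1 CPM in layer B and 30.1 to 40.4 CPM in layer C, and 4 of the 5 passed in both comparisons. No astrocyte, microglial or endothelial marker was at 0 in any sample, and of the meningeal markers Myoc was at 0 in layer B replicate 2 and in layer C replicates 1 and 2, and Slc6a13 in layer C replicate 2. Their part in the Rorb result was not tested.

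In B against C, Rorb was lower in layer B, without overlap of the samples, by a log2 fold change of -0.84 (SE 0.379). The unadjusted p-value of edgeR was 0.0415 and the adjusted p-value was 1, so this difference did not pass. All 5 annotated Rorb transcripts that were tested were higher in layer A, by log2 fold changes of 2.43 to 2.59 against layer B and of 1.49 to 1.76 against layer C. Transcripts of a gene share reads and are not independent, and the 5 values say only that the transcript read here shares its direction with the others of the gene.

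Tbr1, a T-box factor of deep-layer and early-born neurons that is also a general marker of glutamatergic neurons in the olfactory cortex, was the only gene of the 9 that passed as lower in layer A. Its levels were 18.6, 34.6 and 20.8 CPM in layer A, 58.7, 40.7 and 54.7 CPM in layer B and 36.3, 32.4 and 41.6 CPM in layer C. All layer A samples were below all layer B samples, while layers A and C overlapped through layer A replicate 2, and layers B and C through layer B replicate 2. The mean level was 24.6 ± 8.65 CPM in layer A and 51.4 ± 9.44 CPM in layer B (SD, n = 3 each), so that Tbr1 was 2.08-fold higher in layer B (log2 fold change of A over B -1.06, SE 0.309, adjusted p = 0.0279). The call did not hold without layer A replicate 1 (adjusted p = 0.118), layer A replicate 3 (0.0921), layer B replicate 1 (0.135) or layer C replicate 1 (0.0626), nor when only the 6 samples of layers A and B were fitted (0.074). The lowest adjusted p-value over the alternatives was 0.0155. The direction was the same in all of them, with log2 fold changes from -1.38 to -0.89 when a sample was left out. Layer C was intermediate, at 36.8 ± 4.64 CPM (SD, n = 3), and neither its difference from layer A (-0.58, SE 0.307, adjusted p = 0.271) nor from layer B (0.48, adjusted p = 1) passed. The 6 general neuronal markers fell from layer B to layer A by a median log2 fold change of -1.60, in the same samples as Tbr1. The 6 markers of glutamatergic neurons were divided, as 2 passed as lower in layer A, 1 passed as higher and 3 did not pass. The vesicular glutamate transporter Slc17a7 averaged 116 CPM in layer A and 249 CPM in layer B (adjusted p = 0.0504). The kinase Camk2a went the other way, at 2972 CPM in layer A and 811 CPM in layer B (adjusted p = 0.0016). The other 3 Tbr1 transcripts also had negative log2 fold changes in A against B, down to -1.37, and 2 of all 4 passed.

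For Rorb and Tbr1, the 2 genes that passed, the 250 bases before the start of each transcript are shown, from RefSeq on GRCm38.p6. The transcripts read were ENSMUST00000048934 for Tbr1 and ENSMUST00000112832 for Rorb. The Tbr1 window lies at chr2:61804203-61804452 on the + strand, just before the transcript at chr2:61804453-61814114. The Rorb window lies at chr19:19111197-19111446 on the - strand, just before the transcript at chr19:18930605-19111196. Capitals mark matches to TAATTA, the core of many homeodomain motifs.

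Tbr1: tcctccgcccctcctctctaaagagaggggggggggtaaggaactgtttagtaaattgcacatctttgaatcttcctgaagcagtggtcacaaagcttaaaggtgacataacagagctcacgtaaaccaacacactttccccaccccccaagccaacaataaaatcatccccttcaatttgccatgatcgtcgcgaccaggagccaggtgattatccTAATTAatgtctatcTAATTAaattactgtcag

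Rorb: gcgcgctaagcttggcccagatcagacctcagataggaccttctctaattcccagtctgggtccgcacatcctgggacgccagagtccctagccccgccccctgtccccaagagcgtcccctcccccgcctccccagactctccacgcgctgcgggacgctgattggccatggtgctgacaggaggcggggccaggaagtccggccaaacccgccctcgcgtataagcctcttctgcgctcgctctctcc

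The Tbr1 window holds 2 copies of TAATTA, starting 33 and 18 bases before the transcript, and 4.84% of 32851 promoter windows of the same length hold at least 1. The Rorb window holds none. Neither window holds AGGTCA (the half-site read by retinoid-related orphan receptors, in 14.0% of windows), TGTTTAC (a forkhead motif, 3.17%), GGTGTGA (a T-box motif, 3.33%) or CAGATG (an E-box, 14.4%) on either strand. The windows also differ in base composition, with 45.2% G and C in Tbr1 and 66.0% in Rorb. These matches are descriptions of the sequence and were not set against any measure of binding. RefSeq windows were found for 8 of the 9 genes, all but Foxp2.

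The upper-layer factors Cux1 and Cux2, homeodomain proteins of the cut family, did not pass in any comparison. Cux1 was at 35.3, 11.01 and 16.9 CPM in layer A, at 12.2, 14.9 and 14.2 CPM in layer B and at 20.5, 25.3 and 12.8 CPM in layer C. Layer A replicate 1 was the highest sample and layer A replicate 2 the lowest, so the layer with the largest spread enclosed both others. The log2 fold change of Cux1 was 0.61 in A against B (SE 0.398, adjusted p = 0.341), 0.11 in A against C (adjusted p = 0.913) and -0.50 in B against C (adjusted p = 1). Cux2 ranged from 20.8 to 30.3 CPM in layer A, from 18.0 to 32.0 CPM in layer B and from 22.5 to 28.6 CPM in layer C. Cux2 thus had a log2 fold change of 0.03 in A against B (SE 0.302) and -0.02 in A against C, both smaller than their SE, and the sign of each depended on the alternative. Cux1 was read from ENSMUST00000004097 (chr5:136266415-136567445) and Cux2 from ENSMUST00000111752 (chr5:121856366-122049851), both on the - strand. Only 2 of the 14 annotated Cux1 transcripts were listed in the count tables, and their log2 fold changes in A against B had opposite signs, 0.61 and -0.36.

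Bcl11b, also known as Ctip2, is a zinc finger repressor of neurons projecting out of the cortex and is also abundant in neurons of the striatum. It was at 35.4, 37.4 and 20.7 CPM in layer A, at 48.9, 37.7 and 34.9 CPM in layer B and at 36.6, 31.5 and 34.8 CPM in layer C. The 3 layers overlapped, and the log2 fold change in A against B was -0.38 (SE 0.298, adjusted p = 0.441). Markers of striatal or olfactory tubercle neurons summed to 14.97 to 40.6 CPM in layer A, 61.4 to 80.3 CPM in layer B and 25.7 to 58.1 CPM in layer C, with Drd2 at 0 in layer B replicate 2 and layer C replicate 2, and Adora2a at 0 in layer C replicate 2. The deep-layer co-repressor Tle4 overlapped between layers as well, at 8.49 to 10.2 CPM in layer A, 5.44 to 10.4 CPM in layer B and 7.79 to 12.4 CPM in layer C, with log2 fold changes of 0.26 (adjusted p = 0.675), -0.03 (adjusted p = 0.97) and -0.29 (adjusted p = 1) for A over B, A over C and B over C. Bcl11b was read from ENSMUST00000066060 (chr12:107910403-108003602) and Tle4 from ENSMUST00000052011 (chr19:14448150-14598051), both on the - strand.

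Fezf2 is the zinc finger factor that directs neurons toward a subcerebral fate upstream of Bcl11b. It had 40, 22 and 89 counts in layer A, 3, 12 and 69 counts in layer B and 52, 33 and 626 counts in layer C, or 3.38, 1.47 and 2.22 CPM, 0.0673, 0.277 and 1.43 CPM, and 1.27, 2.10 and 5.32 CPM. Layer B replicates 1 and 2 were the lowest samples, whereas replicate 3 reached almost the lowest sample of layer A. The log2 fold change was 1.97 in A against B (SE 0.799, adjusted p = 0.112) and -2.30 in B against C (SE 0.792, adjusted p = 0.911), and neither passed. Without layer B replicate 3 the former was 3.80 and passed (adjusted p = 0.00234), and over the alternatives its adjusted p-value ranged up to 0.302. Foxp2, a forkhead factor of deep-layer neurons projecting to the thalamus, had 20, 11 and 99 counts in layer A, 2, 1 and 90 counts in layer B and 35, 7 and 310 counts in layer C. Layers A and C overlapped for Foxp2. Layer B overlapped both because its replicate 3, at 1.87 CPM, was within their ranges, while replicates 1 and 2 were at 0.0449 and 0.0231 CPM, at or below 3 counts. The log2 fold change was 1.35 in A against B (SE 1.05, adjusted p = 0.437), and without layer B replicate 3 it was 5.54 and passed (adjusted p = 0.00107), with an adjusted p-value of up to 0.689 over the alternatives. For Fezf2 and Foxp2 alike, replicate 3 was the highest sample of layer B, so leaving it out enlarges the difference and neither call counts as support. Fezf2 was read from ENSMUST00000022262 (chr14:12342102-12345959, - strand) and Foxp2 from ENSMUST00000115477 (chr6:14901349-15441977, + strand).

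Foxp1, another forkhead factor, present in neurons of several neocortical layers and of the striatum, was at 18.9, 12.7 and 17.5 CPM in layer A, 6.86, 7.72 and 11.3 CPM in layer B and 14.5, 12.9 and 16.9 CPM in layer C. All layer B samples were below all samples of layers A and C. The log2 fold change in A against B was 0.92 (SE 0.318), with an adjusted p-value of 0.0608 that did not pass, which does not show that the layers are alike. It was under 0.05 in 6 alternatives, with upper quartile normalization (0.0334), DESeq2 (0.0317), the filter on all 9 samples (0.0344), counts summed by gene (0.0257), the highest transcript of each gene (0.0262) and without layer B replicate 3 (0.0115), and over all alternatives it ranged up to 0.207. Against layer C, Foxp1 was lower in layer B by a log2 fold change of -0.78 (adjusted p = 1). The transcript read was ENSMUST00000113326 (chr6:98925338-99266515, - strand). All 14 Foxp1 transcripts tested had positive log2 fold changes in A against B and negative ones in B against C, and none of them passed.

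The samples of layers A and B did not overlap for 4 of the 9 genes, with Fezf2, Rorb and Foxp1 higher in layer A and Tbr1 lower, beside 32.3% of all transcripts (17.2% with layer A above and 15.1% with layer A below). Layers A and C were separate for Rorb alone, with layer A above, beside 31.4% of transcripts (17% above and 14.5% below). Layers B and C were separate for Rorb and Foxp1, both lower in layer B, beside 8.59% of transcripts (3.92% above and 4.67% below). The joint test over the 3 layers at once passed for Rorb (adjusted p = 0.000829) and for 14.3% of transcripts. The median log2 fold change of the 9 genes was 0.61 in A against B, -0.02 in A against C and -0.50 in B against C, beside -0.12, -0.01 and 0.07 over all tested transcripts. Comparisons of the same layer share samples, so the values of A over B and B over C are not independent.

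**Figure D2:**
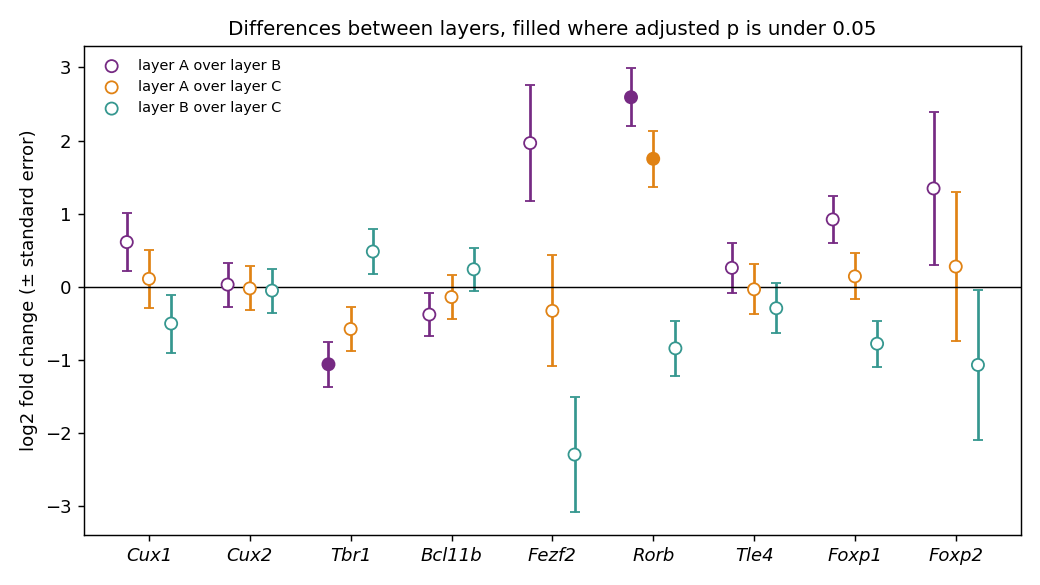
Log2 fold changes with SE of the 9 transcription factors in the 3 comparisons of layers, with values above 0 for genes higher in the first layer named and filled symbols for those with an adjusted p-value under 0.05. Rorb stands highest in the comparison of layers A and B at 2.59, Tbr1 lies at -1.06, and Cux2 lies at 0.03, -0.02 and -0.05 in A against B, A against C and B against C.

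**Figure D3:**
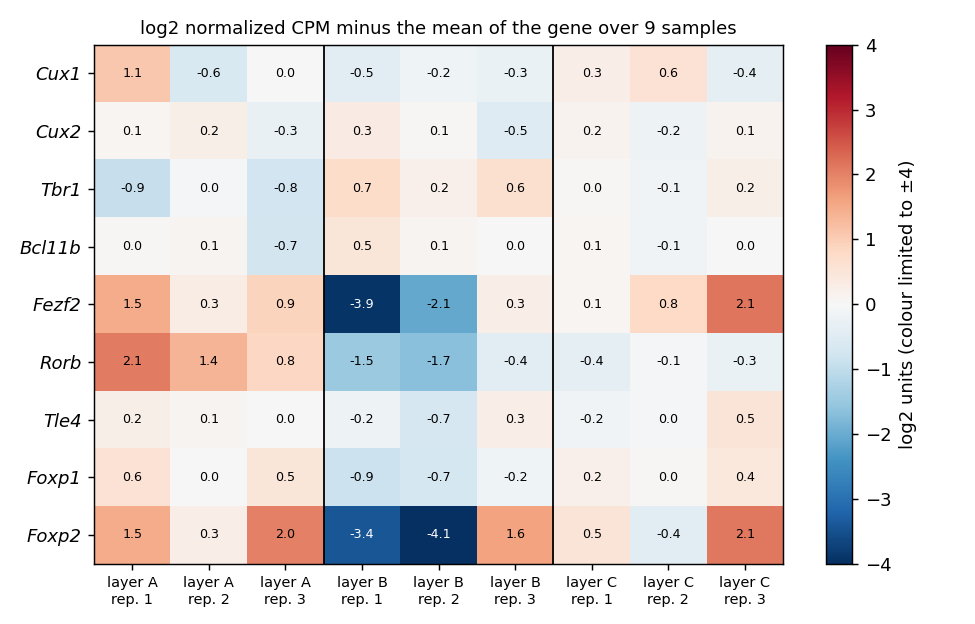
Log2 normalized CPM of each gene in each sample after subtracting the mean of that gene over the 9 samples, shown as colours with the values written in the cells. Layer B replicates 1 and 2 are far below the mean for Fezf2 and Foxp2 while layer B replicate 3 is not, and Rorb is above its mean in all 3 layer A samples.

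Fezf2, Foxp2 and some of the marker levels given above set replicate 3 of layer B against replicates 1 and 2. The comparisons are therefore also given without it, which leaves in layer B the 2 samples that were most alike. That choice rested on values of the genes under test. The adjusted p-values and ratios of Fezf2 and Foxp2 below are thus descriptions and no support for a difference. Without replicate 3, 5 of the 9 genes passed in A against B, beside 20.4% of transcripts. Tbr1 was lower in layer A (log2 fold change -0.96, adjusted p = 0.045), and Rorb (3.14, adjusted p = 7.1e-05), Fezf2 (3.80, adjusted p = 0.00234), Foxp1 (1.22, adjusted p = 0.0115) and Foxp2 (5.54, adjusted p = 0.00107) were higher. In B against C, none of the 9 passed, beside 0.0305% of transcripts, and the lowest adjusted p-values were those of Fezf2 and Foxp2, both 0.071, with log2 fold changes of -4.14 and -5.28. The fitted fold changes of these 2 genes rest on few counts. Over the pooled replicates 1 and 2 of layer B, Fezf2 had 15 counts and Foxp2 had 3. Relative to those, Fezf2 was 13.2 times as high in layer A (95% counting interval 7.76 to 24.2), 24.0 times as high in layer C (14.4 to 43.0) and 8.41 times as high in layer B replicate 3 (4.76 to 15.8). For Foxp2 the ratios were 56.9 (19.04 to 279), 59.3 (20.1 to 289) and 54.8 (18.2 to 271). The ratios of layers A and C are of pooled counts, so the deepest sample of a layer weighs most. Replicate 3 of layer C gave 626 of the 711 Fezf2 counts and 310 of the 352 Foxp2 counts. Replicate 3 of layer A gave 89 of the 151 and 99 of the 130. The intervals cover counting error only and not the spread between samples, and they take amplified reads as independent.

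Within a layer, the order of the 9 genes was read per kilobase of transcript (CPM per kb), a scale that depends on the length of the transcript read. Foxp1 shows how much. Its transcript ENSMUST00000074346 has nearly the same counts as the one read here but 2118 in place of 7029 bases, which gives 7.63 in place of 2.32 CPM per kb in layer A, above Tbr1. The order below therefore holds for the transcripts read and not for the genes. In layer A the mean level was highest for Rorb (13.4 CPM per kb), followed by Tbr1 (6.20), Bcl11b (3.84), Cux2 (2.97), Foxp1 (2.32), Tle4 (2.05), Cux1 (1.64), Fezf2 (1.08) and Foxp2 (0.241). Of these neighbours only Tbr1 and Bcl11b, and Fezf2 and Foxp2, did not overlap between samples. In layer B the order began with Tbr1 (12.9 CPM per kb), Bcl11b (4.99), Cux2 (2.91) and Rorb (2.22), and ended with Fezf2 (0.271) and Foxp2 (0.0956). There Tbr1 lay above Bcl11b, Bcl11b above Cux2 and Cux1 above Fezf2 in every sample, and the other neighbours overlapped. In layer C Tbr1 was again highest at 9.24 CPM per kb, followed by Bcl11b (4.23), Rorb (3.99) and Cux2 (3.01), with Foxp2 lowest at 0.194. The ratio of Rorb to Tbr1 per kb of the transcripts read, a pair singled out after its values were seen, was 4.24, 1.39 and 1.60 in the samples of layer A, 0.114, 0.143 and 0.256 in layer B and 0.390, 0.551 and 0.375 in layer C. It was above 1 in all layer A samples and below 1 in the other 6, and layers B and C did not overlap either. As a ratio within a sample it does not depend on the normalization.

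The layers differ in how much neuronal RNA they hold, so each gene was also set against the mean log2 level of 6 markers of glutamatergic neurons in the same sample. Such a scale adjusts only for RNA that comes from neurons. Whether the RNA of the 9 genes came from neurons alone was not tested. On this relative scale Rorb was higher in layer A by 3.63 log2 units against layer B and 3.11 against layer C, with no overlap of samples. Tbr1 differed by -0.03 in A against B, with overlap of the samples, and in B against C it was 0.87 higher in layer B without overlap. In A against B, Cux1 (1.49), Fezf2 (2.59), Tle4 (1.34), Foxp1 (1.95) and Foxp2 (2.24) were higher in every layer A sample than in any layer B sample, and Cux2 (1.10) and Bcl11b (0.65) overlapped. In A against C, Cux1 (1.45), Cux2 (1.43), Tle4 (1.45), Foxp1 (1.58) and Foxp2 (1.78) were likewise higher in every layer A sample, and Tbr1 (0.84), Bcl11b (1.27) and Fezf2 (1.33) overlapped. In B against C, Rorb (-0.53) and Foxp1 (-0.36) were lower in every layer B sample, and the other 6 genes besides Tbr1 overlapped. A shift of the reference moves every gene alike. Cux2, at 1.10 here in A against B, had a log2 fold change of 0.03 on normalized CPM, where Cux1, Tle4 and Foxp2 overlapped between layers A and B. Before logs were taken, 0.5 CPM was added to each level. That is more than the level of Fezf2 or Foxp2 in replicates 1 and 2 of layer B, so their relative values there rest mostly on it and the reference. The share of all transcripts without overlap was not determined on this scale, so these separations are not read as particular to the 9 genes. The exact two-sided permutation test of 3 samples against 3 cannot give a p-value below 0.1, which is the p-value of every difference without overlap, and after adjustment over the 27 differences it was 0.18, so none passed. The markers themselves did not move together. Camk2a, a kinase whose RNA is also carried into dendrites, was the 1 marker of the 6 that passed as higher in A against B, and Neurod2 and Nrgn passed as lower.

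**Figure D4:**
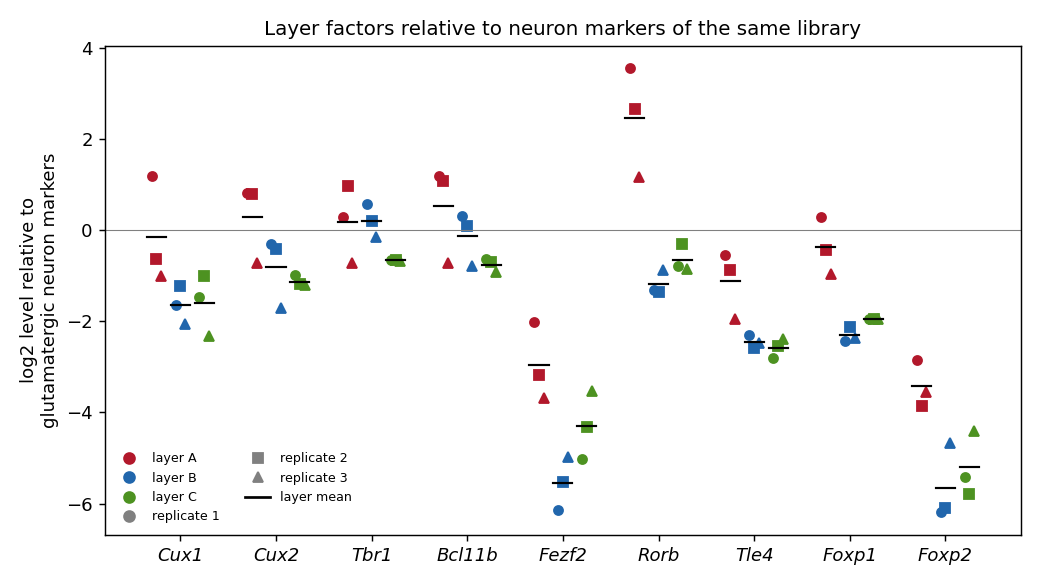
Log2 level of each of the 9 transcription factors relative to the mean log2 level of 6 glutamatergic neuron markers in the same sample, with 1 point per sample grouped by layer and a bar at the mean. Rorb is 3.63 log2 units higher in A against B on this scale, while the Tbr1 samples of layers A and B overlap.

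Of 20 further transcription factors used as laminar markers in the neocortex, 19 were listed in the count tables and all 19 were tested. In A against B, 4 were higher in layer A, 2 were lower and 13 did not pass, beside 10.7% of all transcripts higher and 5.83% lower, with a median log2 fold change of -0.02. Nfia, a nuclear factor I protein of glia and of deep-layer neurons, rose in layer A to 143 ± 66.9 CPM from 18.6 ± 6.66 CPM in layer B (log2 fold change 2.94, adjusted p = 0.000278). Tshz2, a zinc finger protein of some deep-layer neurons, was at 36.4 ± 14.7 CPM in layer A and 8.07 ± 0.461 CPM in layer B (SD, n = 3 each), and Otx1, a homeodomain factor of layer 5 neurons read here from a transcript with a retained intron, had a log2 fold change of 3.44. Sox5, which controls the timing of deep-layer neurons, was the fourth at 1.27 (adjusted p = 0.0199). The neuronal factor Mef2c was lower in layer A, at 106 ± 29.1 CPM against 350 ± 47.7 CPM in layer B (log2 fold change -1.72, adjusted p = 0.00146), and so was Tshz3 (-1.10, adjusted p = 0.0202). The call of Sox5 was lost without layer A replicate 1, layer B replicate 1 or layer B replicate 2, with an adjusted p-value of up to 0.106, and that of Tshz3 without layer A replicate 2, layer A replicate 3 or layer B replicate 1, with up to 0.0857. Sox5 and Tshz3 were named after their values were seen.

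In A against C, 3 of the 19 were higher in layer A, namely Otx1, Nfia and Tshz2, and 5 were lower, beside 6.98% of all transcripts higher and 4.35% lower. The calls of these 3 were lost without layer C replicate 1, and that of Nfia also without layer A replicate 1, with adjusted p-values of up to 0.0826, 0.0784 and 0.0514. Nr4a2, a nuclear receptor of claustrum, endopiriform nucleus and deep-layer neurons, was at 3.48 ± 1.71 CPM in layer A and 26.9 ± 26.8 CPM in layer C (SD, n = 3 each). Its log2 fold change was -2.95 (adjusted p = 0.00997), and most of the layer C level came from replicate 3, at 57.6 CPM against 8.70 and 14.3 CPM. Markers of claustrum and endopiriform neurons, Nr4a2 among them, summed to 144 CPM in that sample and to 41.4 and 54.5 CPM in the others of layer C. Without it Nr4a2 did not pass, nor did it without layer A replicate 2, and its adjusted p-value reached 0.0572 over the alternatives. Lmo4, Ldb2 and Mef2c were also lower in layer A. Of these Mef2c passed in every alternative, whereas Lmo4 was lost on leaving out any sample of layer A or replicates 1 or 2 of layer C, and Ldb2 on leaving out replicates 1 or 2 of layer A or replicates 1 or 3 of layer C, with adjusted p-values of up to 0.0889 and 0.0904. Lmo4 was named after its values were seen. In B against C, none of the 19 passed. After Nr4a2 and Nfia, the smallest unadjusted p-values of edgeR were those of Ldb2 (log2 fold change -1.18) and Bhlhe22 (1.48).

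**Figure D5:**
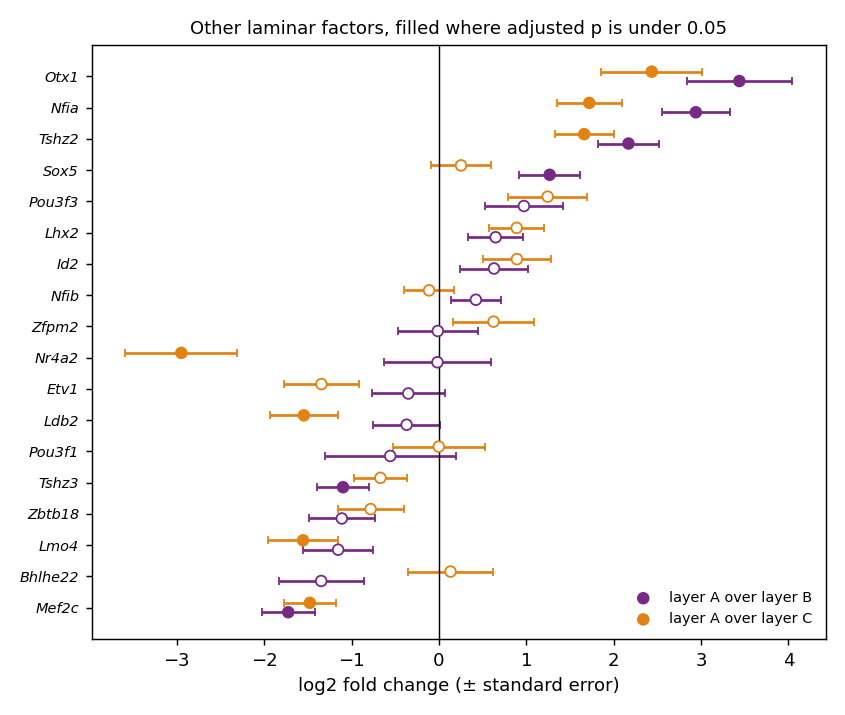
Log2 fold changes with SE of further laminar transcription factors in A against B and in A against C, with filled symbols for adjusted p-values under 0.05. Nfia, Tshz2 and Otx1 are higher in layer A in both comparisons, and Mef2c is lower in both.

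Of 13 close relatives of the 9 genes, 8 had enough counts to be tested and 5 did not. Only Bcl11a, the paralog of Bcl11b and like it a zinc finger factor of cortical neurons, passed, as lower in layer A in both comparisons with it. It was at 4.40, 7.40 and 9.61 CPM in layer A, 25.7, 22.6 and 26.5 CPM in layer B and 21.8, 22.2 and 18.3 CPM in layer C. Every layer A sample was below every other sample, with log2 fold changes of -1.79 against layer B (SE 0.327, adjusted p = 0.00193) and -1.53 against layer C (SE 0.325, adjusted p = 0.00912). The second call was lost without layer C replicate 1, with an adjusted p-value of 0.054. Rora, the closest relative of Rorb among those tested, was at 96.5 ± 34.5 CPM in layer A, 61.2 ± 10.8 CPM in layer B and 58.0 ± 9.66 CPM in layer C (SD, n = 3 each), and its log2 fold change of 0.66 in A against B did not pass (adjusted p = 0.174). The log2 fold changes of Tle3 (-0.49), Tle2 (0.69, from a transcript with a retained intron), Foxp4 (-0.52), Tle1 (-0.30) and Foxp3 (-0.18) between the same layers did not pass either. How reads shared by related genes were counted is not given in the sources used here.

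The genes whose levels followed each of the 9 most closely over the 9 samples were found among 13536 protein-coding genes, by the smallest root mean square (RMS) difference of log2 CPM after subtracting each gene's mean. For Rorb these were P2ry12, a purinergic receptor of microglia (RMS 0.104), and Ddah1 (0.153). P2ry12 was at 38.7, 25.6 and 16.4 CPM in layer A, 2.92, 2.61 and 6.59 CPM in layer B and 6.35, 8.85 and 8.48 CPM in layer C, and like Rorb it was highest in replicate 1 within layer A, in replicate 3 within layer B and in replicate 2 within layer C. P2ry12 was picked for this likeness, so the shared order adds nothing to it, and 398 genes lay within an RMS of 0.5 of Rorb. For Tbr1 the nearest were the deubiquitinase Cyld (0.131) and Slc37a3 (0.148), for Cux1 R3hdm2 (0.137) and Bptf (0.173), for Cux2 Tnks (0.122) and Exoc6b (0.132), and for Bcl11b Klhl7 (0.1003) and Rprd1a (0.101). Tle4 was nearest to Pura (0.150) and Enpp4 (0.157), and Foxp1 to the lysosomal protease Ctsd (0.169) and Fam149a (0.184). Fezf2 and Foxp2 had no close match. The nearest to Fezf2 was the myelin protein Mal at 0.600, followed by Vegfd at 0.682, and the nearest to Foxp2 was Spp1 at 1.01, followed by Fezf2 itself at 1.02. These RMS values are descriptions over 9 samples that share library depth and layer composition.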

How the data were processed

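RNA of laser-captured layers A, B and C was amplified by the authors before libraries without strand information were prepared, so reads of antisense genes cannot be told apart, and amplified reads are not independent molecules. The submitters' processing notes name bcl2fastq 1.8.4, Bowtie, HTSeq 0.5.3 and mm10. The authors deposited raw counts per Ensembl transcript for each of 9 samples, with no normalization. Of 95533 identifiers, 86.6% matched the GENCODE annotation of GRCm38, the assembly of mm10.

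A minimum of 10 counts in 3 or more samples left 56416 transcripts. After TMM scaling, 1 model of all 9 samples was fitted with edgeR 4.0.16 (R 4.3.3), and every pair of layers was compared by its quasi-likelihood test, with Benjamini-Hochberg adjustment and a threshold of 0.05. The test was checked on simulated counts, where it missed most of the differences put in. Not passing therefore does not show that layers are alike. Alternatives were DESeq2 1.42.0, other scalings and filters, sums of counts by gene, the highest transcript of each gene, a replicate block, only the 6 samples compared, an unadjusted threshold and leaving out each sample. A log2 CPM used a prior count of 0.5, and a relative level a pseudocount of 0.5 CPM.

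The 9 genes and all lists were chosen with earlier results of these data known. Named were the 9 genes, the 2 genes most like each, and of each list the 3 genes with the smallest p-value in A against B, 2 others in A against C and 2 others in B against C. Some list members are not reported here by name. Same-numbered samples of different layers deviated together no more than other samples did, which cannot show whether they share an animal.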

Additional observations from a re-analysis of the deposited data

How the results depend on the processing

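The count of the 9 genes that passed in A against B was 2, and it was 1 with only the 6 samples compared and 4 at an unadjusted p-value under 0.05. Foxp1, not among these 2, also passed in A against B with upper quartile normalization, with DESeq2 and with the filter on all 9 samples. It did so as well with counts summed by gene and with the highest transcript of each gene. Leaving out a sample gave 1 to 5 genes in A against B, 0 to 1 in A against C, and 1 to 4 for any difference among the layers. The highest of these counts, 5 and 4, came without layer B replicate 3, and Tbr1 fell out without layer A replicates 1 or 3, layer B replicate 1 or layer C replicate 1. The unadjusted threshold gave 3 genes in B against C and 4 for any difference, and that last count was 2 with no filter, with the replicate block and with counts summed by gene, against 1. The causes were not tested.

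Over all features, the number that passed in A against B was 3562 with counts summed by gene, 5006 with the highest transcript of each gene and 16378 at the unadjusted threshold, against 9329. Fewer features were tested in the former 2. In A against C the numbers were 2622, 3749 and 13820, against 6389, and in B against C 1, 5 and 2316, with 124 for DESeq2 and 10 with no filter, against 0. Leaving out a sample gave 5571 to 11336 in A against B (lowest without layer A replicate 1), 1369 to 9742 in A against C (lowest without layer C replicate 1) and 0 to 17 in B against C (highest without layer B replicate 3).

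Signs turned only for small differences that had not passed. Cux2 was at -0.23 in A against B and 0.12 in B against C with counts summed by gene, and at 0.0298 in A against C with the filter on all 9 samples, where Tle4 was at 0.0112. When a sample was left out, the log2 fold change of Cux2 ranged from -0.11 to 0.27 in A against B, -0.14 to 0.14 in A against C and -0.28 to 0.10 in B against C. In A against C the ranges were -0.48 to 0.42 for Cux1, -0.29 to 0.10 for Bcl11b, -0.69 to 0.51 for Fezf2, -0.16 to 0.22 for Tle4 and -0.17 to 1.32 for Foxp2. Relative to neuronal markers, Tbr1 in A against B was at 0.51 with markers of all neurons, at 0.15 with a pseudocount of 0.1 CPM and from -0.43 to 0.42 when a sample was left out. In B against C, markers of all neurons gave Cux2 -0.31, Bcl11b -0.0060 and Tle4 -0.52, and the ranges without a sample were -0.41 to 0.25 for Cux1 and -0.0011 to 0.21 for Tle4.

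The replicate numbers were not shown to pair the samples. The correlations of same-numbered samples of different layers ran from -0.187 to 0.224, 3 of 9 were over 0.1, and 4 of the 9 samples correlated best with their own number. Those of differently numbered samples ran from -0.335 to 0.349, and 6 of 18 were over 0.1. With 3 samples a layer, these values cannot show whether same-numbered samples share an animal. With the replicate block 3 of the 9 genes passed in A against B, Fezf2 among them (log2 fold change 2.61, with 0.0239 as the adjusted p-value of edgeR), and 1 in A against C and 0 in B against C, and 9184, 6384 and 0 transcripts. In A against C the block turned the sign of Fezf2 (0.0690) and Tle4 (0.0076). At 3 counts as the floor, Foxp2 in replicates 1 and 2 of layer B was at the limit of detection.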
